A study of Homo sapiens with 6 samples.

Results

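Small noncoding RNAs with fixed folds, and the host genes that carry such RNAs in their introns, were followed in HEK293 cells made to express an RNA called TDNC1. Members were taken by gene symbol from the annotation of the array: small Cajal body RNAs (SCARNA), small nucleolar RNAs, spliceosomal RNAs, vault RNAs (VTRNA), the RNAs of RNase MRP, RNase P and telomerase (RMRP, RPPH1 and TERC), 7SK and 7SL RNA, and the small nucleolar RNA host genes (SNHG). The rule found 39 members among 53617 rows of the table, of which 16098 carry a gene symbol here, and each member had 1 row. They are 23 small Cajal body RNAs, 9 host genes and 7 other structured RNAs (4 vault RNAs, RMRP, RPPH1 and TERC). Rows under the symbols of small nucleolar RNAs, spliceosomal RNAs, 7SK and 7SL were not analysed here.

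The cells were of the HEK293 Flp-In T-REx type, a human embryonic kidney line in which a construct enters a prepared site of the genome. One group carried TDNC1 and the other a random RNA as control, so both had gone through integration, selection with hygromycin in place of Zeocin, and growth with blasticidin. Stable clones of each kind were pooled, 3 arrays (Affymetrix Human Gene 2.0 ST) of total RNA were made per group, and values are log2 expression. The name TDNC1 is not spelled out in the labels, which also leave unsaid whether the inducer was added. The titles number the arrays as biological replicates but do not state if each was its own culture or pool of clones. The level of TDNC1 itself was not analysed here, so the labels were not checked against it. Every p-value therefore covers only how far these arrays differ among themselves, which may be partly technical.

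Small Cajal body RNAs sit in Cajal bodies, nuclear bodies where spliceosomal RNAs are finished, and guide enzymes to the bases to be modified. Box C/D guides direct methylation of the ribose and box H/ACA guides direct pseudouridylation, and some of these RNAs carry both kinds of box. Most are cut out of the introns of other genes, whereas a few are transcribed from promoters of their own. Telomerase RNA ends in a box H/ACA domain and also passes through Cajal bodies. SNHG transcripts are spliced, have small nucleolar or Cajal body RNAs in their introns, and many are short-lived in the cytoplasm.

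The array medians lay between 5.16 and 5.22. Of the markers of HEK293 cells and embryonic kidney that were listed, 9 of 13 were measured, and the neurofilament genes are not among those measured. Vimentin (VIM), the keratin KRT18 and the kidney progenitor factor SALL1 stood at 8.27 or above in all 6 arrays. The other 6 were lower, with KRT8, PAX2, LHX1 and SIX2 between 5.78 and 6.95, WT1 between 6.61 and 7.004 and PAX8 between 4.83 and 5.30, near the array medians. PAX2, a kidney factor, was higher in TDNC1 at an unadjusted p under 0.05, by 0.41 (SE 0.12). Fibroblast markers (3 of 7 measured), blood markers (2 of 6) and epithelial markers (4 of 5) had median log2 differences of -0.07, -0.06 and -0.06, and of these genes the epithelial claudin CLDN4 alone passed an unadjusted p of 0.05, by 0.26 (SE 0.11). EPCAM, an epithelial marker, stood at 9.69 to 10.04 in all 6 arrays, above VIM, KRT18 and SALL1. CLDN4, ESRP1 and GRHL2 stood between 4.11 and 5.54, the fibroblast genes between 2.02 and 5.97 and the blood genes between 3.94 and 5.15. The part of these lists in the results was not tested. The summed log2 value ran from 10.94 to 12.28 in TDNC1 and from 11.51 to 11.96 in the control for the fibroblast list, from 8.98 to 9.25 and from 9.06 to 9.34 for the blood list, and from 23.68 to 24.86 and from 24.02 to 24.77 for the epithelial list.

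The 23 small Cajal body RNAs had a median log2 difference (TDNC1 minus control) of 0.28, and 17 were above 0. Over all rows the median was -0.01, and 47.0% of rows were above 0. The 9 host genes had a median of -0.01 with 4 above 0, and the 7 other structured RNAs a median of -0.02 with 3 above 0. The 1072 microRNA genes on the array, another class of short RNA, had a median of -0.03 with 42.7% above 0. They are a limited comparison, with a median level of 4.13 against 7.39 for the Cajal body RNAs, since differences in dim rows are compressed. No member was called at an adjusted p under 0.05 in limma's moderated test, where 0.00187% of all rows (1 row) were called. In total RNA of pooled cells, a change in some of the cells and a smaller change in each cell cannot be told apart. At an unadjusted p under 0.05, 5 small Cajal body RNAs were higher in TDNC1, against 3.74% of all rows, and 0 were lower, against 3.96% of all rows. Of the remaining members, SNHG17 and RPPH1 were lower at that level and none was higher. The groups did not overlap for 4 small Cajal body RNAs and 1 host gene, all higher in TDNC1 (6.48% of all rows), and for RPPH1, lower in TDNC1 (6.7% of all rows). All rows are also a limited comparison, with a median level of 5.17. Of 11916 protein-coding genes, with a median level of 6.69, 595 were higher and 274 lower at that unadjusted level. Among these genes the groups did not overlap for 1178 in the higher direction and 758 in the lower one.

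**Figure D1:**
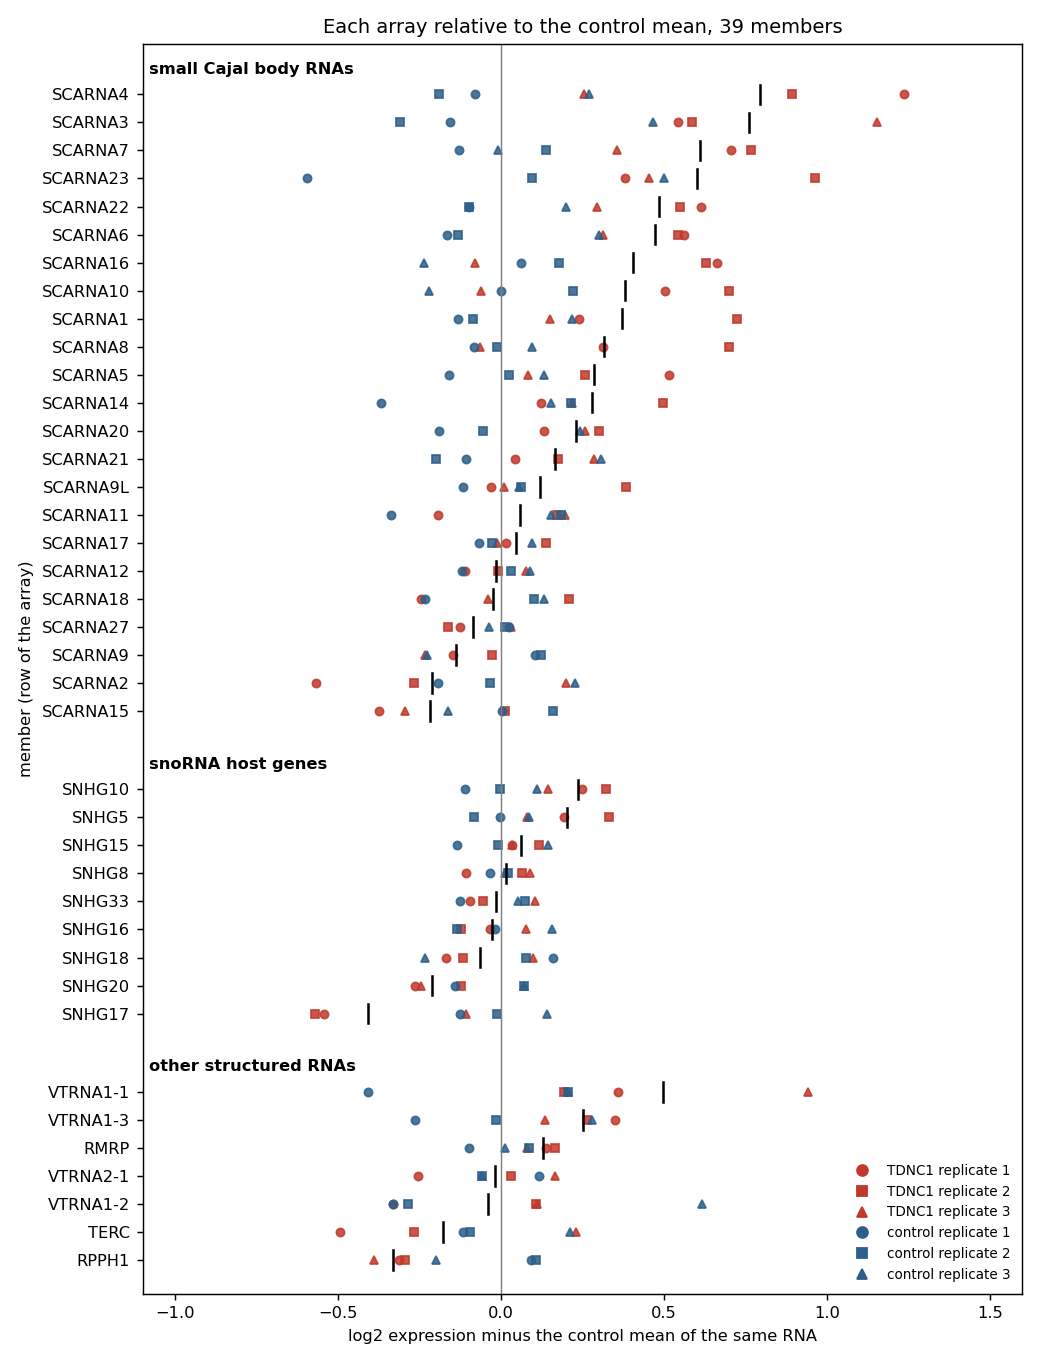
Log2 expression of each of the 39 members in each of the 6 arrays, minus the mean of the 3 control arrays for the same row (x axis); black ticks mark the mean of the 3 TDNC1 arrays. Small Cajal body RNAs run from 0.79 (SCARNA4) to -0.22 (SCARNA15), host genes from 0.24 to -0.41 and the other structured RNAs from 0.50 to -0.33.

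The shift of the Cajal body RNAs differed between arrays. Relative to the control mean of each RNA, the class mean was 0.21, 0.38 and 0.15 in TDNC1 replicates 1, 2 and 3, and -0.14, 0.02 and 0.12 in control replicates 1, 2 and 3. The groups of class means do not overlap, but TDNC1 replicate 3 and control replicate 3 lie close together, and control replicate 1 alone lies well below the others. Of the 23 RNAs, 10 stood above all controls in TDNC1 replicate 1 (27.3% of all rows), 16 in replicate 2 (26.8% of all rows) and 8 in replicate 3 (23.9% of all rows). Between TDNC1 replicate 3 and control replicate 3 the median absolute difference was 0.064 over these RNAs and 0.136 over all rows, and TDNC1 replicate 3 was the higher for 10 of the 23. This array stood nearer the controls over the whole table as well: its median absolute difference over all rows was 0.161, 0.156 and 0.136 from the controls and 0.188 and 0.177 from the other TDNC1 arrays, which were 0.134 apart. Control replicate 3 also stood nearer TDNC1 replicate 3 than its own group, at 0.162 and 0.16 from control replicates 1 and 2 over all rows. Over the 39 members it was 0.295 and 0.167 from those controls and 0.077 from TDNC1 replicate 3. The median log2 difference of the class was 0.14 without control replicate 1, 0.17 without TDNC1 replicate 2, 0.31 without TDNC1 replicate 3 and 0.39 without both arrays numbered 3.

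**Figure D2:**
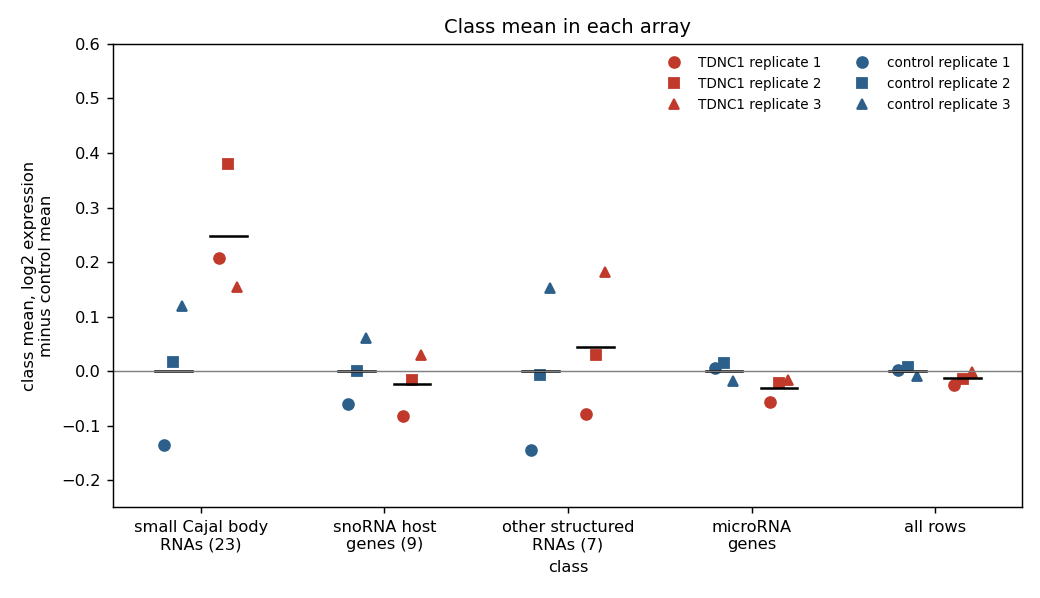
Mean of each class in each array, as log2 expression minus the control mean of the same row (y axis), for the 3 classes of members, the microRNA genes and all rows; black bars are group means over 3 arrays. The Cajal body RNAs lie at 0.15 to 0.38 in TDNC1 and at -0.14 to 0.12 in the control, while the microRNA genes and all rows stay within 0.06 of 0. The microRNA genes and all rows are dimmer, with median levels of 4.13 and 5.17 against 7.39 for the Cajal body RNAs.

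The other classes did not share that spread between groups. The host genes had class means of -0.08, -0.02 and 0.03 in the TDNC1 arrays, against -0.06, 0.00 and 0.06 in control arrays, so the groups overlap. The other structured RNAs had -0.08, 0.03 and 0.18 in the TDNC1 arrays, against -0.14, -0.01 and 0.15 in control arrays, again with overlap, and with the arrays numbered 3 the highest of each group. That order also holds for the host genes. In the Cajal body RNAs it holds for the control arrays, whereas TDNC1 replicate 3 is the lowest of its group.

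Box C/D guides of the Cajal body are described first. SCARNA7, which guides methylation of U1 spliceosomal RNA, stood at 8.13, 8.19 and 7.78 in TDNC1 and at 7.30, 7.57 and 7.42 in the control. All 3 TDNC1 arrays are above all 3 controls, with replicate 3 the lowest of them. The log2 difference was 0.61 (SE 0.14, 95% interval 0.28 to 0.93), or 1.53-fold, with the smallest unadjusted p of any member (0.00301 in limma, adjusted p = 0.631). SCARNA2, a guide for U2 RNA and the 1 Cajal body RNA here that lies inside no other gene of the reference table, went the other way in most arrays. It stood at 7.13, 7.44 and 7.90 in TDNC1 and at 7.51, 7.67 and 7.93 in the control. The groups overlap, replicates 1 and 2 of TDNC1 being the lowest, and the log2 difference was -0.21 (SE 0.21).

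The remaining box C/D guides stayed near the control. SCARNA9, which guides methylation of U2 RNA, had a log2 difference of -0.14 (SE 0.13), and SCARNA9L, a related copy on the X chromosome whose probes may not be separable from it, 0.12 (SE 0.14). SCARNA17 had values of 10.68, 10.80 and 10.65 against 10.59, 10.63 and 10.76, a log2 difference of 0.05 (SE 0.10). These 3 RNAs overlapped between the groups. The 5 box C/D RNAs had a median of 0.05, with 1 of 5 higher at an unadjusted p under 0.05 (3.74% of all rows).

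Of the 12 box H/ACA guides, 10 had positive log2 differences (47.0% of all rows), with a median of 0.34. At an unadjusted p under 0.05, 3 were higher (3.74% of all rows). SCARNA4, a guide for U2 RNA, had the largest difference of all members. It stood at 7.97, 7.63 and 6.99 in TDNC1 and at 6.66, 6.55 and 7.01 in the control. TDNC1 replicates 1 and 2 are far above every control, but replicate 3 lies just below control replicate 3, so the groups overlap. The log2 difference was 0.79 (SE 0.25, 95% interval 0.20 to 1.39), or 1.73-fold, and 1.06 without TDNC1 replicate 3. The limma adjusted p was 0.631.

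SCARNA3 stood at 5.87, 5.92 and 6.49 in TDNC1 and at 5.18, 5.02 and 5.80 in the control. The groups do not overlap, and both arrays numbered 3 are the highest of their group. Its log2 difference was 0.76 (SE 0.24, 95% interval 0.18 to 1.34), or 1.69-fold (limma adjusted p = 0.631). SCARNA22, an RNA known for its high level in myeloma cells with a rearranged NSD2 gene, stood at 10.81, 10.74 and 10.49 in TDNC1 and at 10.09, 10.09 and 10.39 in the control. All TDNC1 arrays are above all controls, and the gap is narrowest between the arrays numbered 3. The log2 difference was 0.49 (SE 0.13, 95% interval 0.18 to 0.80, limma adjusted p = 0.631).

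The next 6 box H/ACA guides had positive differences that did not reach an unadjusted p of 0.05. SCARNA23 had a log2 difference of 0.60 (SE 0.29), with control values from 4.53 to 5.62. SCARNA16 had 0.40 (SE 0.22), SCARNA1 0.37 (SE 0.18), SCARNA8 0.32 (SE 0.19), SCARNA14 0.28 (SE 0.18) and SCARNA20 0.23 (SE 0.13). The groups overlapped in each. SCARNA11 had 0.06 and SCARNA18 -0.03, while SCARNA15 had the lowest value of the whole class, -0.22 (SE 0.14). It stood at 5.17, 5.56 and 5.25 against 5.55, 5.70 and 5.38, so that the groups overlap.

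Among the 4 RNAs with both kinds of box, SCARNA6 stood at 7.79, 7.77 and 7.54 in TDNC1 and at 7.06, 7.10 and 7.53 in the control. The groups are separate, but by only a narrow margin between the arrays numbered 3. Its log2 difference was 0.47 (SE 0.15, 95% interval 0.12 to 0.83), or 1.39-fold (limma adjusted p = 0.631). SCARNA5, which lies in another intron of the same gene, ATG16L1, had 0.28 (SE 0.14). SCARNA10, a guide for U5 RNA, stood at 9.18, 9.38 and 8.62 in TDNC1 and at 8.68, 8.90 and 8.46 in the control. Replicates 1 and 2 of TDNC1 exceed all controls and replicate 3 lies among them, for a log2 difference of 0.38 (SE 0.21). SCARNA12 had values of 10.14, 10.24 and 10.32 against 10.13, 10.28 and 10.34, a log2 difference of -0.01 (SE 0.10) that was 0.01 when each array was centred on its median. SCARNA21 and SCARNA27, given no box type here, had 0.17 and -0.09.

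**Figure D3:**
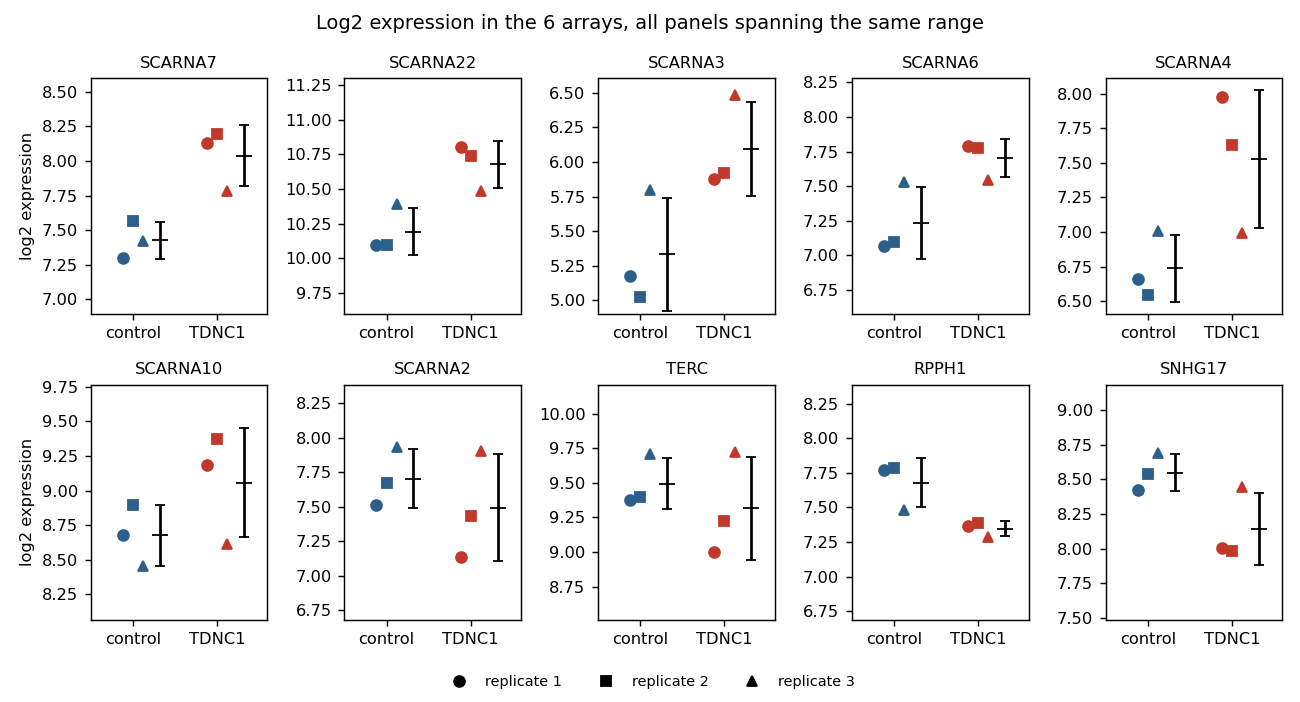
Log2 expression (y axis) of 10 members in the control and TDNC1 arrays, with group mean and SD (n = 3) as bars and the replicate number as the symbol; every panel spans the same range. SCARNA7, SCARNA22, SCARNA3 and SCARNA6 have all TDNC1 arrays above all controls, SCARNA4 and SCARNA10 have replicates 1 and 2 alone above them, and SCARNA2 and TERC have replicates 1 and 2 below them.

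Leaving out TDNC1 replicate 3 moved the counts. Then 9 small Cajal body RNAs were higher at an unadjusted p under 0.05, against 6.87% of all rows, and 1 was lower (SCARNA2, with a log2 difference of -0.42), against 7.62% of all rows. Those that joined were SCARNA16 with 0.65, SCARNA10 with 0.60, SCARNA8 with 0.51, SCARNA1 with 0.48 and SCARNA5 with 0.39, while SCARNA3 no longer did. No member had an adjusted p under 0.05 in this limma fit either, where 0.0429% of all rows (23 rows) did. Of the other members, TERC was then lower, with a log2 difference of -0.38, SNHG17 remained lower, SNHG10 and SNHG5 were higher, and RPPH1 no longer passed. Without control replicate 2, 2 Cajal body RNAs were higher at an unadjusted p under 0.05 (2.66% of all rows), without control replicate 1 it was 3 (2.59% of all rows), and without control replicate 3 it was 9 (3.88% of all rows). With array weights, which count deviating arrays less, it was 11 (6.49% of all rows).

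Length in the reference table separates the Cajal body RNAs into 14 of 125 to 187 bases and 9 of 266 to 421 bases. The shorter ones had a median log2 difference of 0.30, with 11 of 14 above 0, and the longer ones 0.12, with 6 of 9 above 0. The shorter group holds all 12 box H/ACA guides with SCARNA21 and SCARNA27, so for these guides length and box type cannot be told apart. In the longer group the 4 RNAs with both kinds of box (266 to 330 bases) had a median of 0.33. The 5 box C/D guides there (330 to 421 bases) had 0.05. Of the other short members, the vault RNAs VTRNA1-1 and VTRNA1-3 had 0.50 and 0.25, and VTRNA1-2 and VTRNA2-1, both dim, had -0.04 and -0.02. How far the RNA columns kept such short RNAs was not tested.

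The genes that hold the Cajal body RNAs allow a comparison within a locus. By position in the reference table, 22 of 23 lie within the span of another gene. For 13 of them such a gene had a named row, and these are 12 genes. Of the 13, SCARNA15, SCARNA16 and SCARNA11 also lie within a further gene without a named row: SNHG21, SEC14L1 and CHD4-AS1 in turn. The holding genes had a median log2 difference of 0.01, with 6 of 12 above 0, against 0.28 for the 13 RNAs. The RNA had the higher difference in 9 of the 13 pairs. Across the pairs, Pearson's r was 0.05 and Spearman's rho 0.18, given as a description since the pairs share the same 6 arrays and 2 of them share a gene. The reference table gives no strand for the Cajal body RNAs, so a holding gene may be on the other strand, and it is not shown to be the precursor.

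NSD2, a histone methyltransferase gene that holds SCARNA22, stood at 7.87, 7.88 and 7.62 in TDNC1 and at 7.55, 7.51 and 7.53 in the control. Like SCARNA22 it was higher in all TDNC1 arrays, with replicate 3 the lowest of them. Its log2 difference was 0.26 (SE 0.10, limma adjusted p = 0.646). CHD3, a chromatin remodeller gene that holds SCARNA21, had the largest difference of the holding genes, 0.35 (SE 0.13), above the 0.17 of its RNA, and the groups overlap. NSD2 and CHD3 were the 2 of 12 holding genes higher at an unadjusted p under 0.05, and 0 were lower. Over all rows 3.74% were higher and 3.96% lower at that level. Of 11916 protein-coding genes, 595 were higher and 274 lower. CEP295, which holds SCARNA9, had 0.12 (SE 0.12) against -0.14 for the RNA. KPNA4, a nuclear import receptor gene that holds SCARNA7, had 0.05 (SE 0.09) where the RNA had 0.61. KHDC4, which holds SCARNA4, had -0.01 (SE 0.10) where the RNA had 0.79. The autophagy gene ATG16L1 had -0.07 (SE 0.14), against 0.47 for SCARNA6 and 0.28 for SCARNA5. PHB2, a prohibitin gene that holds SCARNA12, had -0.09 (SE 0.10) and FSD2, in whose span SCARNA15 lies, -0.08 (SE 0.13). The KHDC4 and ATG16L1 values, both near 0, changed sign in some alternative fits.

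**Figure D4:**
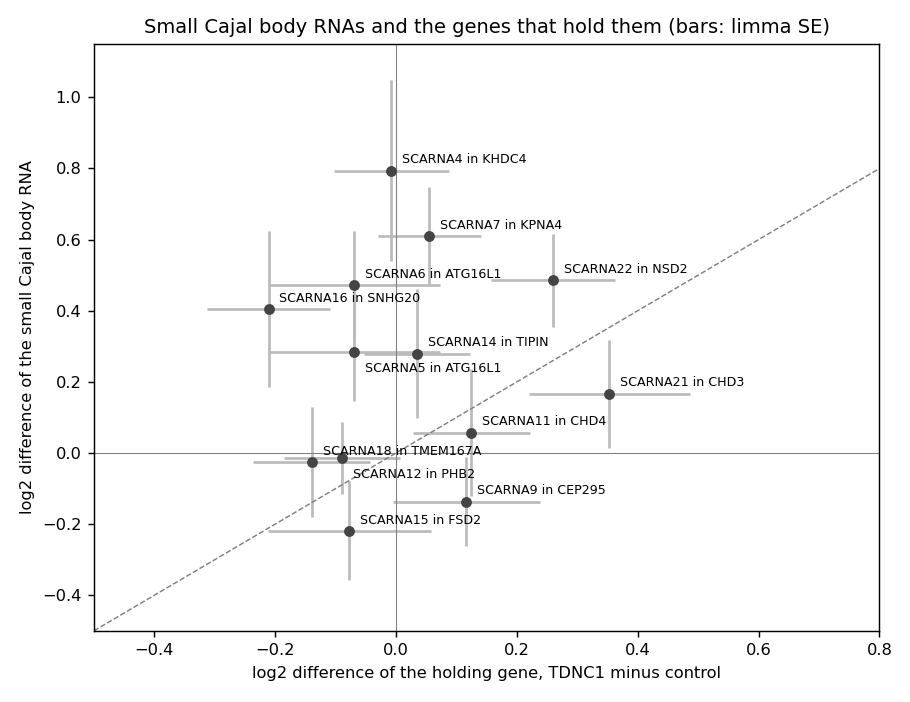
Log2 difference (TDNC1 minus control) of each of 13 small Cajal body RNAs (y axis) against that of the gene whose span holds it (x axis), with limma standard errors as bars and a dashed line where both are equal. Of the 13 pairs, 9 lie above the line, and the holding genes stay between -0.21 and 0.35.

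The host gene SNHG20, also a member, holds SCARNA16. It stood at 7.39, 7.53 and 7.41 in TDNC1 and at 7.52, 7.73 and 7.73 in the control, a log2 difference of -0.21 (SE 0.10), opposite in sign to the 0.40 of the small RNA. The groups overlap narrowly for the host gene and by more for the small RNA.

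SNHG transcripts often start with a C and a run of C and T, the pattern of genes whose translation follows growth signals. The 40 bases around the annotated start (20 on each side) are shown for the 8 host genes found in the promoter table, which lacks SNHG15. They are shown because the transcripts differ in this and in their values. Sequences are from RefSeq on GRCh38.p14, on the strand of the gene, and capitals mark a C followed by at least 4 more C or T that begins within 5 bases of the start.
SNHG17: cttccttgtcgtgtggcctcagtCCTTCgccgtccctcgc
SNHG10: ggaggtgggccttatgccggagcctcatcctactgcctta
SNHG5: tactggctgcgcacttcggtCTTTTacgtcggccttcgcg
SNHG20: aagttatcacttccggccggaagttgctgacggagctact
SNHG8: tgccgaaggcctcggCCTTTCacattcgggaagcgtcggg
SNHG16: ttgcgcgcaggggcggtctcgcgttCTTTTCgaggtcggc
SNHG33: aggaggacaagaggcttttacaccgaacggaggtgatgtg
SNHG18: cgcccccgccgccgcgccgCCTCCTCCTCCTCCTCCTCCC

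These windows lie at chr20:38435309-38435348 (minus strand) for SNHG17, chr14:95534853-95534892 (minus) for SNHG10, chr6:85678714-85678753 (minus) for SNHG5 and chr17:77088623-77088662 (plus) for SNHG20. Those of SNHG8, SNHG16, SNHG33 and SNHG18, all on the plus strand, lie at chr4:118278742-118278781, chr17:76557744-76557783, chr3:183447588-183447627 and chr5:9546180-9546219. The run was found in 5 of the 8, searched on the gene's strand alone, and in 21.1% of the 27305 genes of the promoter table. The limit of 5 bases, set with the windows in view, decides the count: a run in SNHG33 begins 1 base outside it, so that a limit of 6 gives 6 of 8 (24% of the table), while a limit of 2 gives 2 of 8. A match is a description of letters and not a site.

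SNHG17, which has the run, was the host gene with the largest difference. It stood at 8.01, 7.98 and 8.44 in TDNC1 and at 8.42, 8.54 and 8.69 in the control. TDNC1 replicates 1 and 2 lie below all controls and replicate 3 just above the lowest of them. The log2 difference was -0.41 (SE 0.15, 95% interval -0.76 to -0.05), that is 1.33-fold lower, and -0.56 without TDNC1 replicate 3 (limma adjusted p = 0.637 with all arrays). SNHG10, the host of SCARNA13, shows no such run and stood at 7.55, 7.63 and 7.45 in TDNC1 and at 7.20, 7.31 and 7.42 in the control. The groups are separate, by 0.03 between the arrays numbered 3. Its log2 difference was 0.24 (SE 0.10, 95% interval -0.002 to 0.48).

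SNHG5, whose run begins at the first base, had values of 8.46, 8.60 and 8.35 against 8.27, 8.19 and 8.35, a log2 difference of 0.20 (SE 0.10). The lowest TDNC1 array and the highest control stand at nearly the same value. SNHG16 and SNHG8 have a run near the annotated start but not at it. The run begins at base 6 in SNHG16 and at -5, before the start, in SNHG8. Their differences were -0.03 (SE 0.11) and 0.02 (SE 0.09), and both signs change when single arrays are left out. SNHG15, SNHG33 and SNHG18 had 0.06, -0.01 and -0.06. The host genes with a run near the annotated start thus include the lowest difference, 1 of the highest and several near 0.

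RPPH1, the RNA of RNase P, which trims the leader of transfer RNA precursors, stood at 7.37, 7.39 and 7.29 in TDNC1 and at 7.77, 7.79 and 7.48 in the control. All TDNC1 arrays are below all controls. The log2 difference was -0.33 (SE 0.11, 95% interval -0.60 to -0.07), that is 1.26-fold lower (limma adjusted p = 0.631). RMRP, the related RNA of RNase MRP, which takes part in ribosomal RNA processing, stood at 12.40, 12.43 and 12.34 against 12.17, 12.35 and 12.28. The groups overlap slightly, and the log2 difference was 0.13 (SE 0.09).

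TERC, the template RNA of telomerase, stood at 8.998, 9.22 and 9.72 in TDNC1 and at 9.38, 9.40 and 9.71 in the control. The arrays numbered 3 are nearly equal, and TDNC1 replicates 1 and 2 are below all controls. Its log2 difference was -0.18 (SE 0.20) with all arrays and -0.38 without TDNC1 replicate 3. SCARNA2 has the same arrays at the bottom and the top, with -0.21 and -0.42. This pair was picked after its values were seen.

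The vault RNAs are short products of RNA polymerase III, part of them bound to the large vault particle. VTRNA1-1 stood at 4.68, 4.52 and 5.27 in TDNC1 and at 3.92, 4.53 and 4.53 in the control, a log2 difference of 0.50 (SE 0.24). The groups overlap, and TDNC1 replicate 3 alone is far above the controls. VTRNA1-3 stood at 8.63, 8.54 and 8.41 against 8.02, 8.26 and 8.56, a difference of 0.25 (SE 0.15) with overlap. VTRNA1-2 and VTRNA2-1, an RNA that binds the kinase PKR, had -0.04 (SE 0.27) and -0.02 (SE 0.13). Both group means of each were in the dimmest part of the table, where RMA compresses differences.

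Proteins that work with these RNAs were read from the same fit, and none was called. Of the Cajal body scaffold and SMN complex list, 15 of 19 genes were measured, with a median log2 difference of -0.04. At an unadjusted p under 0.05, 0 were higher and 1 was lower (3.74% and 3.96% of all rows). That gene was GEMIN5, which recognises spliceosomal RNAs for the SMN complex, with -0.29 (SE 0.11) and all TDNC1 arrays below all controls. ICE2, a subunit of a complex for spliceosomal RNA transcription, had 0.25 (SE 0.16). In the box H/ACA protein list (5 of 6 measured, median -0.08) and the box C/D list (8 of 12, median -0.06) no gene reached that level. NOP10, a core protein of box H/ACA particles, had -0.17 (SE 0.09) and the assembly factor NAF1 0.11 (SE 0.09). The assembly helicases RUVBL1 and RUVBL2 had -0.12 (SE 0.09) and -0.23 (SE 0.16).

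In the RNase P and MRP protein list, 7 of 11 genes were measured, with a median of -0.10 and 6 of 7 below 0. RPP40, a protein subunit of RNase P, was the 1 gene of the list at an unadjusted p under 0.05 (3.96% of all rows were lower). It stood at 7.07, 7.17 and 7.19 in TDNC1 and at 7.51, 7.38 and 7.58 in the control. Like RPPH1 it was lower in all TDNC1 arrays, by a log2 difference of -0.35 (SE 0.10, limma adjusted p = 0.631). RPP30, another subunit, had -0.24 (SE 0.10), again with all TDNC1 arrays below all controls.

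The telomerase and telomere list had 9 of 10 genes measured, with a median of -0.04. It held 1 gene higher and 0 lower at that level, against 3.74% and 3.96% of all rows. It includes TPP1, the symbol of a lysosomal peptidase and not of the telomere protein of that name, which ACD encodes; the 8 genes without it had a median of -0.03. STN1, of the complex that fills in the telomeric C strand, stood at 7.46, 7.41 and 6.996 in TDNC1 and at 6.71, 6.75 and 6.95 in the control. The groups do not overlap, and TDNC1 replicate 3 is close to control replicate 3. Its log2 difference was 0.49 (SE 0.15, limma adjusted p = 0.631), and the telomere-binding gene POT1 had 0.31 (SE 0.13). MVP, the major protein of the vault particle and the 1 of 3 genes measured there, had 0.59 (SE 0.20). It stood at 6.48, 6.12 and 5.92 in TDNC1 and at 5.71, 5.24 and 5.81 in the control, with no overlap.

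The other lists held no gene at an unadjusted p under 0.05, where 3.74% of all rows were higher and 3.96% lower. The spliceosomal RNA transcription and processing list (15 of 26 measured) had a median of -0.12, where the Integrator subunits INTS7 and INTS6 had -0.21 (SE 0.10) and -0.22 (SE 0.13). The list of trimming and decay (16 of 20 measured) had 0.01, with the poly(A) polymerase TENT4A at 0.26 and the exosome gene EXOSC1 at -0.13. The 7SK list (6 of 7) had -0.10, with the capping enzyme MEPCE at -0.21 and the kinase CDK9 at -0.125. The signal recognition particle (6 of 6) had a median of 0.001, with SRP9 at 0.13 and SRP14 at -0.07. The RNA polymerase III list (9 of 23) had 0.03, with POLR3GL at 0.28 and POLR3B at -0.21. Of the nonsense-mediated decay list, which holds factors that degrade many SNHG transcripts, 2 of 10 were measured, UPF1 with -0.14 and UPF2 with 0.14. The groups did not overlap for 2 genes higher and 2 lower in the spliceosomal RNA list. The same held for 1 higher and 2 lower in the trimming and decay list. In the RNA polymerase III list it held for 1 higher and 1 lower. Over all rows 6.48% were higher and 6.7% lower without overlap.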

How the data were processed

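The deposited values are log2 expression; the submitters' processing notes name RMA and Affymetrix Power Tools. Version, annotation and genome build: not given in the sources used here. RMA equalises the arrays' distributions, so a shift of most rows would be removed, and dim rows are compressed. Per the labels' protocols, RNA passed silica columns. Values ran from 0.79 to 13.85. Arrays have no sequencing depth; 3 arrays per group limit the precision.

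All 53617 rows were fitted with limma 3.58.1 in R 4.3.3 (lmFit, eBayes, two-sided, no covariate, Benjamini-Hochberg), with the group from the sample titles. The same step was first tested on simulated data. Symbols came from the platform annotation (16098 rows with 1 symbol, 37519 unnamed here), and current names, gene spans and lengths from the GRCh38.p14 gene table through all 16098 entrez identifiers. A gene with several rows was read at its brightest row.

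Named members were those with an unadjusted p under 0.05, the 3 brightest and the extremes of each class, with their holding genes and 2 genes per pathway list; other members are given to account for all. Members, lists and box types (from general knowledge) were chosen with earlier results of these data known, and the rule for pyrimidine runs after the start windows were seen. Alternatives changed the normalization, variance model, array weights, filter, block and arrays used.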

Additional observations from a re-analysis of the deposited data

How the results depend on the processing

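Over 13 alternatives, 42 of 47 named genes kept the sign of their difference, and no member was called in any of them (0 with all rows of a symbol too, since each member has 1 row). The number of called rows of the whole table ran from 1 to 23 when single arrays were left out. The median of the Cajal body RNAs ran from 0.14 to 0.32 when single arrays were left out. Their count higher at an unadjusted p under 0.05 was 5 in the fit reported (3.74% of all rows). With single arrays left out it ran from 2, without control replicate 2 (2.66%), to 9. The 9 came without TDNC1 replicate 3 (6.87%) and without control replicate 3 (3.88%). The count higher was 11 under array weights (6.49%) and reached 12 once both arrays numbered 3 were left out (6.9%). The count lower was 0 in the fit reported (3.96% of all rows). It was 1 without TDNC1 replicate 2 (2.76%), 1 without TDNC1 replicate 3 (7.62%) and 0 in every other fit. The count higher in every TDNC1 array than in every control ran from 4 to 11 without single arrays (9.62% to 15.9% of all rows) and was 14 without both arrays numbered 3 (21.9% of all rows), where fewer arrays make separation easier. Centring each array on its median gave 4.62% of all rows in the higher direction and 3.08% in the lower one by the unadjusted p, against 3.74% and 3.96% in the fit reported. Reversed signs concerned values near 0. Centred arrays gave 0.01 for SCARNA12 and 0.01 for KHDC4, and leaving out both arrays numbered 3 gave -0.02 for SNHG8. Without single arrays SCARNA12 ran from -0.07 to 0.03, SNHG16 from -0.10 to 0.05, SNHG8 from -0.02 to 0.08, ATG16L1 from -0.14 to 0.05 and KHDC4 from -0.07 to 0.03. The cause of these changes was not tested. Deviations from the group means had correlations of 0.036, -0.001 and 0.047 between arrays of the same replicate number, over all rows. The numbers were not taken as pairs. These correlations cannot show whether the arrays numbered 3 share something, since deviations toward each other's group point opposite ways. Over the 39 members these 2 arrays were the closest of all pairs, 0.077 apart in median absolute difference. Whether they share a factor was not tested. With the replicate block, 8 Cajal body RNAs were higher at an unadjusted p under 0.05 (3.47% of all rows), and at an adjusted p under 0.05 1 row of the whole table was called. The counts that used an unadjusted p or overlap, the other limits for start runs and the telomere list without TPP1 were added after the data were seen. Rows at low signal, such as VTRNA1-2 and VTRNA2-1, limit what can be read of their differences.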
